A study of Mus musculus with 8 samples.

Results

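The receptors for the constant part of immunoglobulin G, Fcgr1, Fcgr2b, Fcgr3 and Fcgr4, and the signalling subunit Fcer1g were followed in the mouse hippocampus at 3 months and at 29 months of age. They were chosen by name. An array probe counted as a member when its RefSeq accession belonged to any of these genes, which gave 5 of the 19751 genes named on the array, with 5 of its 39429 probes and 14 of its 43020 spots. Fcgr1, Fcgr3, Fcgr4 and Fcer1g had 1 probe with 1 spot each, and Fcgr2b had 1 probe printed in 10 spots.

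The samples were whole hippocampi, dissected by hand, of untreated wild type C57BL/6J mice that aged in their home cages. The 3M group held 4 samples of mice aged 3 months and the 29M group 4 samples of mice aged 29 months. Each sample was labelled with Cy3 and hybridised to 1 array, and the question put to the data was how transcript levels of young and very old hippocampus differ. The aged mice had been bought old and were kept on by the investigators, and the labels give neither the sex of the mice nor whether each sample came from a mouse of its own, so the p-values measure the spread between these samples.

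Fc gamma receptors sit on the surface of phagocytes and bind antibodies that coat a target. Fcgr1, Fcgr3 and Fcgr4 are activating receptors and need Fcer1g, a short adaptor with an immunoreceptor tyrosine-based activation motif (ITAM), to reach the cell surface and to signal through the kinase Syk. Fcgr2b carries an inhibitory motif (ITIM) of its own and recruits the lipid phosphatase Inpp5d (SHIP1), and the balance between activating and inhibitory receptors sets how strongly a phagocyte answers to antibody. In the healthy brain these receptors are known mainly from microglia and from macrophages at the borders of the tissue.

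The promoters of the 4 receptors are shown because these genes give the main values below and are neighbours in part, since Fcgr2b, Fcgr4 and Fcgr3 follow each other in this order on chromosome 1, with Fcer1g 8 genes further on and Fcgr1 on chromosome 3. Each line gives the 250 bases before the start of the gene in RefSeq on GRCm38.p6, read 5′ to 3′ along the gene. The windows are chr1:170976072-170976321 on the minus strand for Fcgr2b, chr1:171059404-171059653 on the minus strand for Fcgr3 (the first of 2 starts listed for this gene), chr3:96293970-96294219 on the minus strand for Fcgr1 and chr1:171018676-171018925 on the plus strand for Fcgr4. The array was designed on another build, and no coordinate was converted. Capitals mark matches, on either strand, to the core GAGGAA of the myeloid factor PU.1 or to the interferon element ISRE (a pair of GAAA blocks with 2 bases between them).
Fcgr2b: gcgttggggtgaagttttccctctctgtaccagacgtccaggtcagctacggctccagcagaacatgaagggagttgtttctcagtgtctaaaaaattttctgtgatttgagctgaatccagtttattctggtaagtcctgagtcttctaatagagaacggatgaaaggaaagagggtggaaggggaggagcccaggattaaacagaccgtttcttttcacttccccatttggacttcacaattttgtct
Fcgr3: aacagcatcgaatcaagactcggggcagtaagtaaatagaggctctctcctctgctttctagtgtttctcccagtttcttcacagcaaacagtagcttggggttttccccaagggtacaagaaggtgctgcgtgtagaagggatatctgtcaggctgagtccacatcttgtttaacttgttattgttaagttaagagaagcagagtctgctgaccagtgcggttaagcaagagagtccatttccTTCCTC
Fcgr1: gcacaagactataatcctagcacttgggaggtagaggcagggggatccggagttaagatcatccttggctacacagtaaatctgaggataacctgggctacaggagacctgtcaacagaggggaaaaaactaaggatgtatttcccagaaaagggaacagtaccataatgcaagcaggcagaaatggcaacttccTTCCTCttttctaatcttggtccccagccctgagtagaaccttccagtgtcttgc
Fcgr4: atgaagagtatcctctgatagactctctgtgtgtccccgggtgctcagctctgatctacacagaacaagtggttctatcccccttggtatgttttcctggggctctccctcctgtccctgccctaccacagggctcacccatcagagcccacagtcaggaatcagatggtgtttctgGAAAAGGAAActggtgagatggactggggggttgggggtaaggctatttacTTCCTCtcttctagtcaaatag

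The PU.1 core stood in the windows of Fcgr3, Fcgr1 and Fcgr4, in each case on the opposite strand, where it reads TTCCTC. It covered bases -6 to -1 before the start in Fcgr3, -55 to -50 in Fcgr1 and -22 to -17 in Fcgr4. The window of Fcgr4 also held an ISRE match (GAAAAGGAAA) at -73 to -64, and no matches overlapped. No match to these motifs was found in the windows of Fcgr2b and Fcer1g, and none to the AP-1 letters TGANTCA in any member. Among 32851 promoter windows of the same length, 23.3% held the PU.1 core, 2.98% the ISRE letters and 6.75% the AP-1 letters, so a match to the PU.1 core is common and a match describes these letters only.

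All 5 probes were well above the local background on 8 of 8 arrays. Across the arrays 76.2% to 85.0% of spots reached this mark and none was saturated, and any 2 arrays correlated at 0.991 to 0.998 (Pearson, over all probes). The arrays came from 3 slides, and each slide held samples of both ages. Replicate 1 of 3M, which had the lowest share of spots above background, stood apart from the other 3M arrays in several of the genes below, and results that it moved are also given without it. All 9 hippocampal marker genes that were looked at, among them Prox1 of the dentate gyrus, were above background on 8 of 8 arrays. Values are normalized log2 intensities, and a change is the 29M mean minus the 3M mean on this scale. Since probes differ in brightness, the level of 1 member is not set against that of another.

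Fcgr2b and Fcgr3 were higher in 29M, Fcer1g and Fcgr1 showed smaller differences that did not pass the test, and Fcgr4 showed none in a fixed direction. A probe was called when limma's Benjamini-Hochberg adjusted p over all 39408 probes tested was under 0.1 and the change was at least 0.5 either way. By this rule 2 of the 5 members were called higher and none lower, beside 1.25% of all probes called higher and 0.815% called lower (2.06% in either direction). The same 2 members were those whose 29M arrays all lay above every 3M array, which held for 5.52% of all probes. In hippocampal tissue RNA, a change in the number of cells that express a receptor and a change in RNA per cell cannot be told apart.

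**Figure D1:**
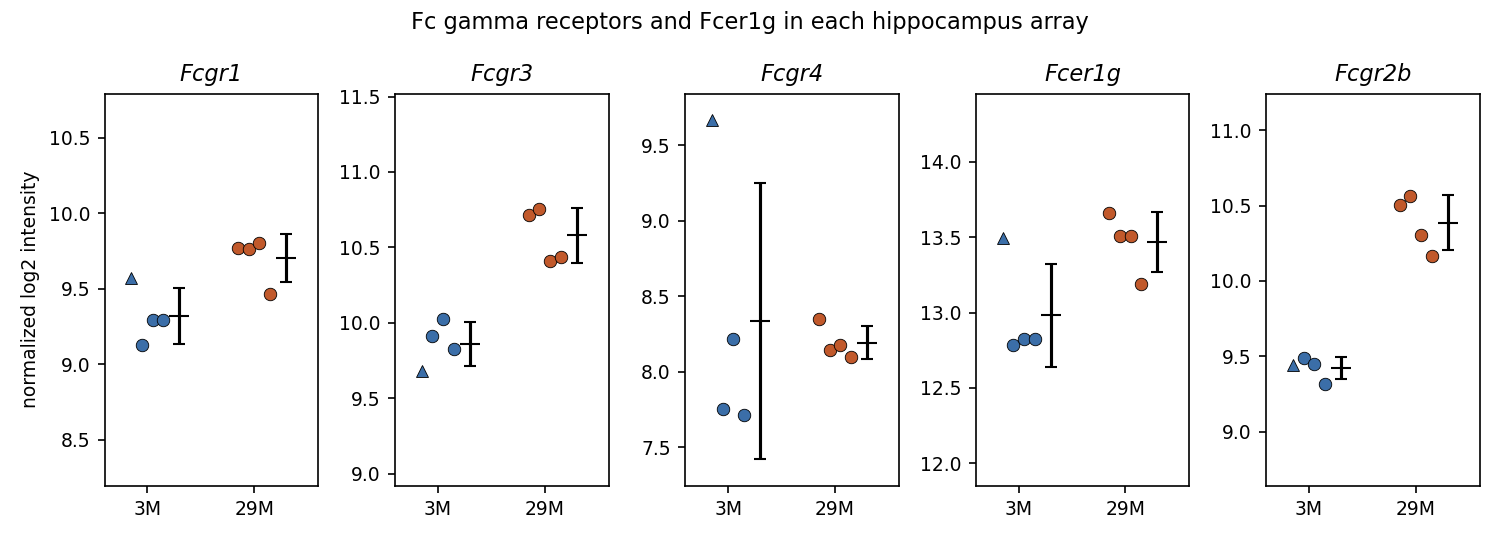
Normalized log2 intensity (vertical axis, each panel spanning the same range) of each member on the 4 arrays of 3M (blue) and the 4 of 29M (orange), with the group mean and SD in black and replicate 1 of 3M as a triangle. The groups are apart for Fcgr3 and Fcgr2b, and the triangle lies at 9.67 for Fcgr4 and 13.49 for Fcer1g, above the other 3M arrays.

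Fcgr2b, the inhibitory receptor, read 9.44, 9.49, 9.45 and 9.32 in replicates 1 to 4 of 3M and 10.50, 10.56, 10.31 and 10.17 in replicates 1 to 4 of 29M. The 3M arrays lay close together and every 29M array was well above them. The means were 9.42 ± 0.07 and 10.39 ± 0.18 (SD, n = 4 each), a change of 0.96 (SE 0.10, 95% interval 0.73 to 1.19), which is 1.95-fold (limma, adjusted p = 0.00367). By p-value this probe was number 45 of the 39408 tested. Its 10 spots allowed the error within an array to be measured. Spots of the same array had an SD of 0.142, so that the mean over an array had an error of 0.0448 from its spots, less than the spread between arrays of a group. Each of the 10 spots was higher in 29M, with changes of 0.73 to 1.16, and the lowest spot on any 29M array, at 9.91, was above the highest on any 3M array, at 9.68.

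**Figure D2:**
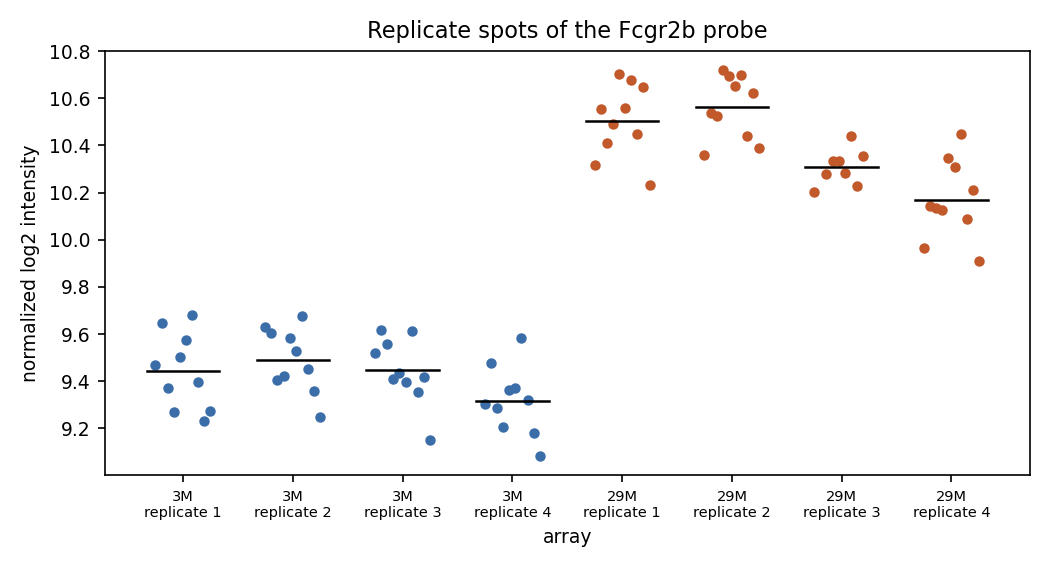
Normalized log2 intensity (vertical axis) of each spot of the Fcgr2b probe on each of the 8 arrays (horizontal axis), 3M in blue and 29M in orange, with the mean of an array as a line. Spots marked as outliers were left out, which left 8 of 10 on replicate 3 of 29M, and the spots of the 2 groups do not overlap.

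Fcgr3, the low affinity activating receptor, read 9.68, 9.92, 10.02 and 9.83 in 3M and 10.71, 10.76, 10.41 and 10.44 in 29M. The groups were again separate. The means were 9.86 ± 0.15 and 10.58 ± 0.18 (SD, n = 4 each), a change of 0.72 (SE 0.11, 95% interval 0.46 to 0.97), which is 1.64-fold (limma, adjusted p = 0.0215). The scanner intensities before normalization already showed this, at 832.5 to 1103 units in 3M and 1325 to 1871 units in 29M. Fcgr2b and Fcgr3 are near-identical over the part that codes for the outer domains of the receptor. The sequences of the probes were not used here, so whether either probe also picks up the other transcript was not tested.

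Fcer1g, the adaptor of all the activating receptors, read 13.49, 12.78, 12.83 and 12.82 in 3M and 13.66, 13.51, 13.51 and 13.19 in 29M. In 3M the replicates 2 to 4 lay close together, and replicate 1 lay at the level of the 29M arrays. With all arrays the change was 0.48 (SE 0.17, 95% interval 0.10 to 0.87), which did not pass the test (limma, adjusted p = 0.198). When replicate 1 of 3M was left out it was 0.65 (SE 0.12), which is 1.57-fold, and was called (limma, adjusted p = 0.0223).

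Fcgr1, the high affinity activating receptor, read 9.57, 9.13, 9.29 and 9.29 in 3M and 9.77, 9.77, 9.81 and 9.46 in 29M. The groups overlapped through replicate 1 of 3M and replicate 4 of 29M. The means were 9.32 ± 0.19 and 9.70 ± 0.16 (SD, n = 4 each), and the change of 0.38 (SE 0.12, 95% interval 0.12 to 0.65) did not pass the test (limma, adjusted p = 0.155). The change without replicate 1 of 3M was 0.46 with an adjusted p of 0.0563 (limma), still under the size limit of 0.5.

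Fcgr4, an activating receptor of intermediate affinity, read 9.67, 7.75, 8.22 and 7.71 in 3M and 8.35, 8.15, 8.18 and 8.09 in 29M. Replicate 1 of 3M was the highest of all 8 arrays, and its spot intensity was 825 units where the other 3M arrays gave 211.5 to 321 units. The 29M arrays lay close together at 8.19 ± 0.11 (SD, n = 4), while 3M spread to 8.34 ± 0.92. With all arrays the change was -0.14 (SE 0.37, 95% interval -0.98 to 0.69), which did not pass the test (limma, adjusted p = 0.885). Without replicate 1 of 3M it turned to 0.30 (SE 0.13, limma, adjusted p = 0.257), so the sign for Fcgr4 rested on 1 array.

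Replicate 1 of 3M thus divided the members. Relative to the average of replicates 2 to 4 it was higher by 1.77 for Fcgr4, by 0.68 for Fcer1g and by 0.34 for Fcgr1. For Fcgr2b it differed from them by 0.02 and for Fcgr3 it was lower, at -0.24. Without it 3 of the 5 members were called higher (Fcgr2b at 0.97, Fcgr3 at 0.66 and Fcer1g), beside 2.64% of all genes in the same fit.

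How the members varied within the age groups was read from their correlations. After the mean of each age group was removed, Pearson's r over the 8 arrays was 0.91 for Fcgr1 with Fcer1g, 0.89 for Fcgr4 with Fcer1g and 0.74 for Fcgr1 with Fcgr4. Fcgr3 and Fcgr2b went together at 0.72. Across these sets the values were lower, from 0.15 to 0.41 for Fcgr2b and from -0.38 to -0.14 for Fcgr3. Over the 7 arrays without replicate 1 of 3M this division was no longer seen. There Fcgr1 with Fcer1g gave 0.86 and Fcgr3 with Fcgr2b 0.89, but Fcgr4 with Fcer1g gave 0.41, Fcgr1 with Fcgr4 0.39 and Fcer1g with Fcgr2b 0.72, and Fcgr3 correlated positively with every other member (0.35 to 0.89). These correlations are descriptions, since all members were read on the same arrays and a single array weighs heavily among so few.

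**Figure D3:**
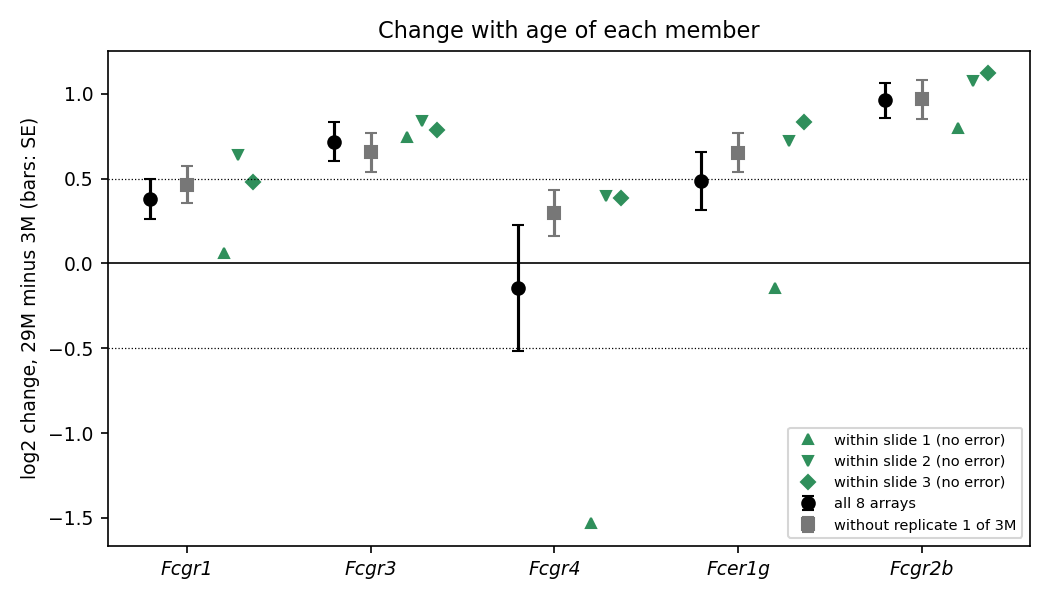
Change of each member (horizontal axis) between 3M and 29M in log2 units (vertical axis), over all 8 arrays (black circles) and without replicate 1 of 3M (grey squares), with SE bars, and within each slide (green, no error). Dotted lines mark the size limit of 0.5 either way, and slide 1 stands below the other slides for Fcgr1, Fcgr4 and Fcer1g.

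Because each slide carried both ages, the changes could be read within slides. Slide 1 held replicate 1 of 3M with replicates 3 and 4 of 29M, slide 2 held replicate 2 of each age, and slide 3 held replicates 3 and 4 of 3M with replicate 1 of 29M. Fcgr2b changed by 0.80, 1.07 and 1.12 on slides 1, 2 and 3, and Fcgr3 by 0.74, 0.84 and 0.79. For both, every slide gave a difference of similar size and the same direction. Fcer1g gave -0.14, 0.72 and 0.83, Fcgr1 gave 0.06, 0.64 and 0.48, and Fcgr4 gave -1.53, 0.40 and 0.39. On slides 2 and 3 every member was thus higher in 29M, and slide 1 is the one whose only 3M sample was replicate 1. With slide as a fixed term in limma, the changes were 0.99 for Fcgr2b (adjusted p = 0.0167) and 0.79 for Fcgr3 (adjusted p = 0.0176), and both stayed called.

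Whether the signal of the inhibitory receptor changed more than that of the activating members was tested on log2 differences. Each was the difference between a member and Fcgr2b on the same array. An exact two-sided permutation test ran over the 70 splits of the arrays. Probes can differ in how far their signal follows a change in RNA, which was not tested here or for the markers below. The differences are therefore those of probe signals. The smallest p that this design allows is 0.0286, and 4 comparisons were made. The change of Fcgr1 was 0.58 below that of Fcgr2b, and the difference of the changes, -0.58, had an exact p of 0.0286 (0.0381 after Benjamini-Hochberg over the 4). For Fcer1g the difference was -0.48 and for Fcgr4 -1.11, with the same exact p of 0.0286 and adjusted value of 0.0381. In these 3 comparisons the member stood lower relative to Fcgr2b on all 4 arrays of 29M than on any array of 3M. For Fcgr3 the difference was -0.24 (exact p = 0.0571, adjusted 0.0571), the arrays overlapped, and the test did not pass the threshold of 0.05. The adjusted values of Fcgr1, Fcgr4 and Fcer1g rose to between 0.0762 and 0.0857 when any single 29M array was left out. When replicate 1 of 3M was left out, the differences were -0.67 for Fcgr4, -0.31 for Fcer1g, -0.50 for Fcgr1 and -0.31 for Fcgr3 (exact test, adjusted p = 0.0286 for each), so those of Fcgr4 and Fcer1g shrank by more than 1.5 times and that of Fcgr3 passed.

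The members were then set beside markers of microglia, in which these receptors are known to be expressed. Tyrobp, Trem2, Siglech and Fcrls are in this marker list and also in the pathway lists below, so the markers are not separate from the pathway. All 14 microglia markers, among them P2ry12, Tmem119 and Csf1r, were above background on 8 of 8 arrays. Of these 12 had a higher mean in 29M, and the median change was 0.32, beside 0.01 over all genes. The mean level of the 13 markers measured on every array ranged from 12.88 to 13.12 in 3M and from 13.10 to 13.42 in 29M, with changes of 0.14, 0.39 and 0.43 on slides 1, 2 and 3. Of the markers 2, Tyrobp at 0.80 and Trem2 at 0.65, were called, beside 1.58% of all genes called higher. Without replicate 1 of 3M these were 4, with Aif1 and P2ry13, beside 2.64% of all genes. The change of Fcgr2b exceeded that of the marker mean by 0.65 and the groups did not overlap (exact two-sided permutation p = 0.0286, 0.143 after adjustment over 5 comparisons). For Fcgr3 the excess was 0.40 (exact p = 0.0571, adjusted 0.143), for Fcer1g 0.17 (exact p = 0.257, adjusted 0.4) and for Fcgr1 0.07 (exact p = 0.4), while Fcgr4 lay below the markers at -0.46 (exact p = 0.4). None passed after adjustment. A single member at the smallest possible exact p of 0.0286 could not pass over 5 comparisons, so this test does not decide whether Fcgr2b alone exceeded the markers. Leaving out replicate 1 of 3M, the excess of Fcgr2b was 0.61, that of Fcgr3 and of Fcer1g 0.30 each and that of Fcgr1 0.11, and Fcgr4 was at -0.06, so its lower value rested on that array.

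Other leukocytes, among them cells that carry Fc gamma receptors, were read by their markers too. Of 9 markers of border macrophages all 9 had a higher mean in 29M, with a median change of 0.36 and mean levels of 9.27 to 9.70 in 3M and 9.63 to 10.001 in 29M. With all arrays only Cbr2 of this list was called, beside 1.58% of all genes called higher. Without replicate 1 of 3M Cbr2, Lyve1 and Ms4a7 were called, beside 2.64% of all genes. Cd163 was above background on no array. Of 10 neutrophil markers 8 were higher in the mean and none was called, at a median of 0.32 and mean levels of 7.71 to 8.41 in 3M and 8.08 to 8.57 in 29M. Monocyte markers (7 measured, median 0.15) and B cell markers (8 measured, median 0.13) gave no call. Ccr2 of the monocytes was above background on 3 arrays of each age. Ms4a1 of the B cells was so on 0 arrays of 3M and 2 of 29M. Ly6c2 of the monocytes, Ly6g of the neutrophils, Trac of the T cells and Tpsab1 of the mast cells had no probe named through RefSeq. Among 9 markers of T and NK cells Cd3d and Cd8a were called higher, beside 1.58% of all genes. The median was -0.02, which is the change of Cd4. The Cd4 probe used read 14.22 in 3M, where Cd3d read 6.28 and Cd8a 6.20. Whether so bright a probe reports Cd4 was not tested. The NK cell markers Klrb1c and Ncr1 were above background on no array. Cd8a was called by 1 of its 2 probes, and the other gave -0.17. Of 7 mast cell markers none was called, and Ms4a2, the beta chain of the IgE receptor that also uses Fcer1g, was above background on no array. The part of these cells in the changes of the receptors was not tested.

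The pathway around the receptors was described by 6 lists with 105 gene symbols, of which 91 had a probe named through RefSeq. By the probe with the highest mean, 6 of the 91 were called higher (6.59%) and 1 lower, beside 1.58% and 0.694% of all 19742 genes tested (2.27% in either direction), and the median change was 0.11. Without replicate 1 of 3M, 21 of the 91 were called higher, beside 2.64% of all genes, so this array lowered the count more than any other.

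**Figure D4:**
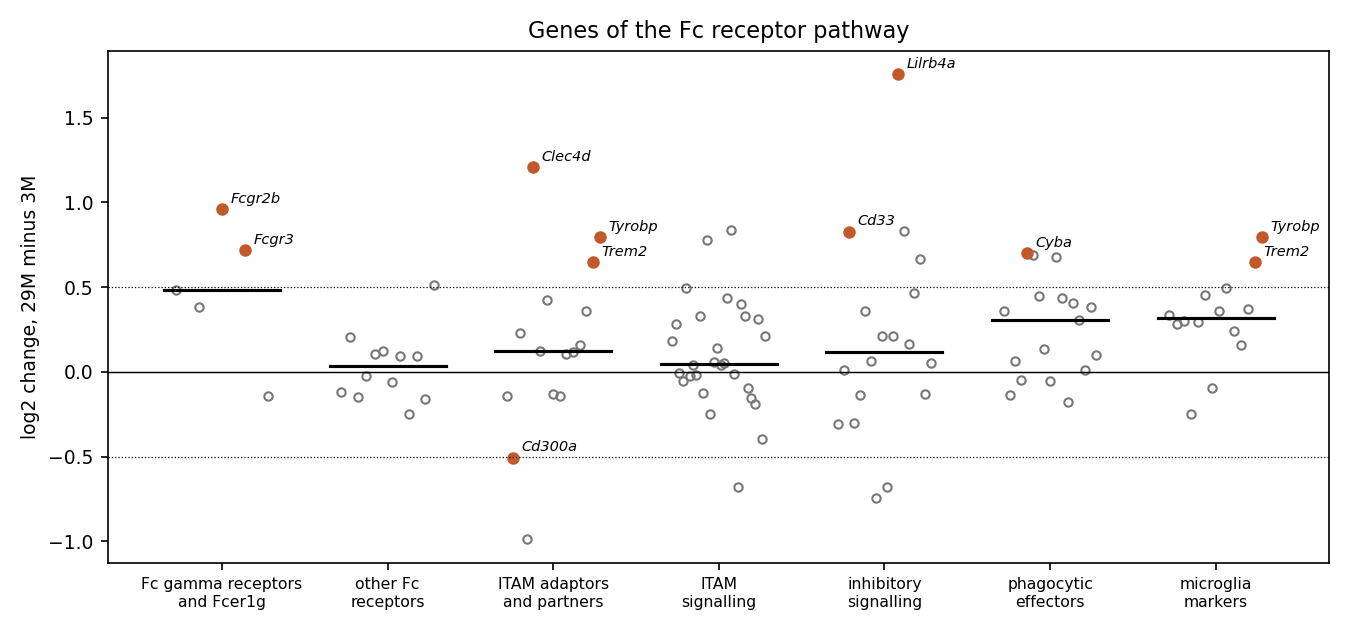
Change between 3M and 29M in log2 units (vertical axis) of each gene in the Fc gamma receptor group, in 5 lists of its pathway and among microglia markers (horizontal axis). Filled orange points with names were called, open points were not, black lines are list medians and dotted lines mark the size limit of 0.5 either way, and Lilrb4a at 1.76 stands highest.

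The list nearest to the members holds Tyrobp, the other main ITAM adaptor of myeloid cells, and receptors that signal through it or through Fcer1g. It also holds the adaptor Cd247 and the inhibitory receptors Cd300a and Clec4a2. Of 15 measured genes 3 were called higher and 1 lower, with a median change of 0.12, and without replicate 1 of 3M these were 4 (Sirpb1a was added) and none. Pira2 was not called by its probe with the highest mean (0.12), while its other probe was called higher, at 0.51. Tyrobp read 13.53, 13.05, 13.02 and 13.09 in 3M and 14.10, 14.10, 14.00 and 13.68 in 29M, so replicate 1 of 3M was the highest of its group here as well, and the groups did not overlap. Its change was 0.80 (SE 0.14, limma, adjusted p = 0.0299), and 0.92 without that array (adjusted p = 0.00588). The call was lost without replicate 2 of 3M (limma, adjusted p = 0.1005) and without replicate 1 of 29M (0.103). Trem2, a lipid-sensing receptor that pairs with Tyrobp, rose by 0.65 (SE 0.13, limma, adjusted p = 0.0494), but was no longer called with slide as a fixed term or when replicate 2 or 3 of 3M or replicate 1 or 2 of 29M was left out. Clec4d, a C-type lectin receptor that signals through Fcer1g, was above background on none of the 3M arrays and on all 4 of 29M. Set against the lowest signal well above background, its 29M level was 2.13-fold higher on this scale, which is not a strict bound. The measured means were 5.53 in 3M and 6.74 in 29M, a change of 1.21 (limma, adjusted p = 0.0024). The size depended on the normalization. The change was 0.84 after normexp and quantile normalization, below the log2 value of 1.09 for that fold. It was 2.55 where each array's processed signals were set relative to their 75th percentile. The probe was called in each. The gene called lower was Cd300a, whose protein is itself an inhibitory receptor. It fell by 0.51 (SE 0.11, limma, adjusted p = 0.0596) and kept the call in 9 of 20 alternative settings. Clec4a2 had the largest fall of the list, at -0.99 (SE 0.36), with separate groups but no call (limma, adjusted p = 0.211). Replicate 1 of 3M read 12.40 for this gene, above the other 3M arrays at 10.51 to 11.29.

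Lilrb4a, an inhibitory receptor of myeloid cells, and Cd33 were the 2 genes called higher among the 18 measured genes listed under inhibitory signalling. The median change of this list was 0.11. The count for this list without replicate 1 of 3M was 5, with Pirb, Ptpn6 and Ptprc added. Lair1 was not called by its probe with the highest mean (0.21), while its other probe was called higher, at 0.75. Lilrb4a read 8.99, 8.17, 8.39 and 8.08 in 3M and 10.11, 10.35, 10.16 and 10.05 in 29M. The groups of Lilrb4a were more than 1 log2 unit apart, and the change of 1.76 (SE 0.18, limma, adjusted p = 0.00367) was the largest in the 6 lists, with both of its probes called. Cd33, a sialic acid binding lectin, read 9.13, 9.02, 8.86 and 8.85 in 3M and 9.56, 9.64, 9.92 and 10.05 in 29M, also without overlap, and changed by 0.83 (SE 0.13, limma, adjusted p = 0.0177). Inpp5d, the phosphatase that Fcgr2b recruits, changed by 0.21 (SE 0.10, limma, adjusted p = 0.323) with overlapping groups. It is named here for its place beside Fcgr2b and was not called. Dok3 at -0.75 (SE 0.20, limma, adjusted p = 0.114) and Inppl1 at -0.68 (SE 0.21, limma, adjusted p = 0.148) were lower in 29M with separate groups. Both were lower on every slide and neither was called, while 12 of the 18 genes had a higher mean in 29M.

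The kinases, adaptors and lipid enzymes downstream of an ITAM showed no call in 28 measured genes, at a median change of 0.05, and 4 calls, all higher, at a median of 0.20 without replicate 1 of 3M. Vav2 at -0.40 (SE 0.08, limma, adjusted p = 0.0442) and Plcg2 at 0.40 (SE 0.09, limma, adjusted p = 0.0598) had separate groups. Both passed the adjusted p but missed the size limit of 0.5. Clec4n of the adaptor list did the same, at 0.42 (SE 0.11, limma, adjusted p = 0.098). Plcg1 at -0.68 (SE 0.21, limma, adjusted p = 0.143) had separate groups but no call, and its other probe gave 0.12. Syk, the kinase that binds the phosphorylated ITAM, gave -0.19 (SE 0.16, limma, adjusted p = 0.595), with replicate 1 of 3M at 10.34 and the other 7 arrays between 9.49 and 9.82, and its change without that array was -0.03 (SE 0.10). The largest difference of the list was that of Pik3r1, a regulatory subunit of phosphoinositide 3-kinase, at 0.84 (SE 0.23), which missed the threshold although the groups were separate (limma, adjusted p = 0.116).

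Of 17 genes of the oxidative burst and of actin-driven uptake only Cyba, the membrane subunit of the NADPH oxidase, was called higher, at 0.70 (SE 0.14, limma, adjusted p = 0.0496), and the list had a median change of 0.30. That call was lost in 7 of 20 alternative settings, among them leaving out replicate 2, 3 or 4 of 3M or replicate 1, 2 or 4 of 29M. The other probe of Cyba changed by 0.43 and was not called. The count in this list was 7 without replicate 1 of 3M, namely Arpc1b, Cyba, Cybb, Itgb2, Ncf1, Ncf4 and Rac2.

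None of 12 genes for Fc receptors of other classes was called, and their median change was 0.03. Trim21, the cytosolic antibody receptor, had the largest difference at 0.51 (SE 0.18), with separate groups but an adjusted p of 0.189 (limma), and it was called without replicate 1 of 3M. Fcgrt, the transporter that recycles immunoglobulin G at the blood vessel wall, gave -0.02 (SE 0.11, limma, adjusted p = 0.941). Fcer1a, Fcrla and Ms4a2 were above background on no array. Of 13 listed symbols for immunoglobulin chains only Jchain, the joining chain, had a probe named through RefSeq, at 0.37 (SE 0.17, limma, adjusted p = 0.322). Igj, also listed, is an older symbol of Jchain. Many probes could not be named, so whether the array holds probes for the antibody chains that Fc gamma receptors bind was not tested.

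Genes with the most similar pattern to each member were sought among 15916 genes above background on all 8 arrays, by Pearson's r after the mean of each age group was removed. For Fcgr2b these were Tcof1 (0.99), Becn1 (0.98) and Cd3eap (0.97), and for Fcgr3 Eif4b (0.99), Chrd (0.99) and Akap6 (0.98). For Fcer1g they were Neurl3 (0.997), H2-Q10 (0.98) and H2-Q2 (0.98), and for Fcgr1 Galnt4 (0.98), Mettl4 (0.97) and Klhl10 (0.97). For Fcgr4 they were Rad51b (0.99), Xdh (0.98) and Sec61b (0.98), whose r was 0.81 to 0.83 without replicate 1 of 3M. None of these 15 genes was called between the ages, and with 8 arrays and so many candidates high values of r arise in any gene.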

How the data were processed

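The authors deposited the scanner output of each array, intensities on a linear scale without normalization between arrays, made per the file headers with Agilent Feature Extraction 10.7.3.1 (another version than in the study's methods). The deposited table of the whole series was not used, because all 8 columns held local background (tolerance 0.001), in 7 of them that of another sample.

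Control and outlier spots (127 to 190 per array) were left out. Median intensities were brought to a generalized log2 scale, which understates the change of dim probes, by variance stabilising normalization in R 4.3.3 (own implementation, quantile 0.9, 7 iterations, tested on simulated data). Spots of 1 probe were averaged. In limma 3.58.1 age was fitted with eBayes wherever 3 arrays or more per group were usable. Normalization, model and thresholds followed the study's methods. A fold against a group below background was computed against the lowest signal well above background. The number of arrays limits the precision.

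Probes were named through RefSeq accessions (26055 of 39429 probes, 66.1%), and a gene with several probes was read by that with the highest mean. Whether each probe reports the gene it is named for was not tested. Some read far above others of their list, such as Itgam at 16.82 in 3M beside Itgb2 at 10.05. List medians and counts include such probes. Named were all members, called genes of the pathway lists, the largest difference of a list without a call, and the 3 genes of most similar pattern per member. Fcgrt, Syk, Inpp5d, Clec4a2, Clec4n, Pira2, Lair1, Vav2, Plcg1, Plcg2, Dok3, Inppl1 and genes called without replicate 1 of 3M were named after their values were seen. The members and lists were chosen with earlier results of these data known. Alternatives covered normalization, input signal, outlier spots, dim probes, slide, pairing, prior, array weights, threshold and each array left out.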

Additional observations from a re-analysis of the deposited data

Results flagged for a closer look

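In 34 sets of 4 values (the members, the called pathway genes, the differences from Fcgr2b and the microglia mean, in each age group), the gap between the highest or lowest array and its nearest neighbour was set against the whole range of the group. The share was above Dixon's critical value (95% level) in 3 sets, where chance gives about 1 in 20, or 1.7 of 34. The sets share arrays and some of their values, so they are not independent and this count is only a guide. For Fcer1g in 3M the share was 0.939, with replicate 1 at 13.49 and the other arrays at 12.78 to 12.83. For Tyrobp in 3M it was 0.862, with replicate 1 at 13.53 and the others at 13.02 to 13.09. For Fcgr1 in 29M it was 0.879, with replicate 4 at 9.46 and the others at 9.77 to 9.81. Replicate 1 was the highest 3M array in 35.2% of all genes, in 11 of 18 genes of inhibitory signalling and in 14 of 28 of ITAM signalling, and in 1 of 10 neutrophil markers. The cause was not tested.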

How the results depend on the processing

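Fcgr2b and Fcgr3 kept their direction and their call in all 20 alternative settings, with changes of 0.90 to 1.12 and of 0.66 to 0.81. Fcer1g ranged from 0.41 to 0.77 and was called with array weights, without replicate 1 of 3M and on slides 2 and 3 only (a setting chosen after seeing the data), and turned to -0.14 within slide 1. Fcgr4 turned positive with array weights (0.22), without replicate 1 of 3M (0.30), within slides 2 and 3 (0.40 and 0.39) and on these slides together (0.35). Members called higher were 4 on slides 2 and 3 and 2 to 3 with any array left out. With an array left out, Fcgr4 ranged from -0.35 to 0.30, and relative to Fcgr2b the differences were -0.67 to -0.50 for Fcgr1, -0.31 to -0.20 for Fcgr3, -1.32 to -0.67 for Fcgr4 and -0.57 to -0.31 for Fcer1g. Relative to Fcgr2b, values within slide 1 were -0.053 for Fcgr3, -2.33 for Fcgr4 and -0.94 for Fcer1g.

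Pathway genes called higher were 18 with array weights, 19 on slides 2 and 3 and 3 (without replicate 2 of 3M or 1 of 29M) to 21 (without replicate 1 of 3M) with an array left out. Those called lower, 1 in the main setting, were 0 with processed signals (75th percentile or variance stabilising) and at an adjusted p of 0.05, 2 with normexp and among bright probes only, 3 with array weights and 0 to 3 (without replicate 3 of 29M) with an array left out. With the replicate number as a block (replicate block), 3 pathway genes were called higher, Fcgr2b (limma, adjusted p = 0.0327) and Fcgr3 (0.099) stayed called, and Cd33, Trem2, Cyba and Cd300a did not. The numbers do not pair the samples (r of deviations -0.24, 0.21, -0.23 and 0.07, and 2 of 8 arrays correlated best with their own number). Averaging all probes of a gene gave no other value for the members, which have 1 probe each. Other causes were not tested.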
